A study of Danio rerio with 2 samples.

Results

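Isolated single-summit Tfap2a regions are places where the list of anti-Tfap2a peaks holds 1 record with 1 summit and no other region within 100 kb on either side. Records that shared at least 1 bp were joined into regions, the distal part of chromosome 4 (from 27 Mb on) and sequences outside the 25 chromosomes were left out, and the outermost region at each end of a chromosome was not judged. By this rule, 1174 regions were isolated, out of 16050 single-summit regions judged and 18728 regions in the whole list. They were compared with the 14876 single-summit regions whose nearest other region lay within 100 kb, called neighboured here. A further 76 isolated regions held more than 1 record and were not members. Regions of 1 record made up 93.9% of isolated regions (95% Wilson interval 92.5 to 95.1%) and 88.9% of neighboured regions (88.4 to 89.3%).

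Tfap2a is a transcription factor of the AP-2 family, which binds GC-rich DNA as a dimer and acts in neural crest, epidermis and other embryonic tissues. Such factors can act at promoters or at enhancers, which may lie far from the gene they control or from other bound sites. In CUT&RUN, an antibody directs a nuclease to the bound protein, so that the DNA next to it is cut and released for sequencing, and a parallel reaction with non-specific IgG gives the background. The peak caller MACS2 compares the antibody signal with the highest of several background levels, 1 taken over the genome and others taken locally around the peak.

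The experiment had 1 condition with 2 samples, each of pooled, dissociated whole zebrafish embryos of wild-type genotype, untreated, at 24 h post-fertilization. The series has 1 peak list, and all its 21059 record names carried the same code and a stage of 22 somites. How this stage relates to the 24 h of the labels is not given in the sources used here. Whether the values of the list come from 1 sample or from both is not given there either. It holds no read counts, and neither a depth nor a sample error can be set beside a value below. Intervals cover counting error over regions only, and adjacent regions are not independent. The members were chosen by the positions and the number of called peaks, and all values came from the same anti-Tfap2a against IgG comparison, so the values are given as a description and no difference between isolated and neighboured regions was tested. The build of the list is not named in it. No genome or gene annotation was laid over it here, and positions are therefore those of the list, counted from 1, with no gene assigned to a region.

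**Figure D1:**
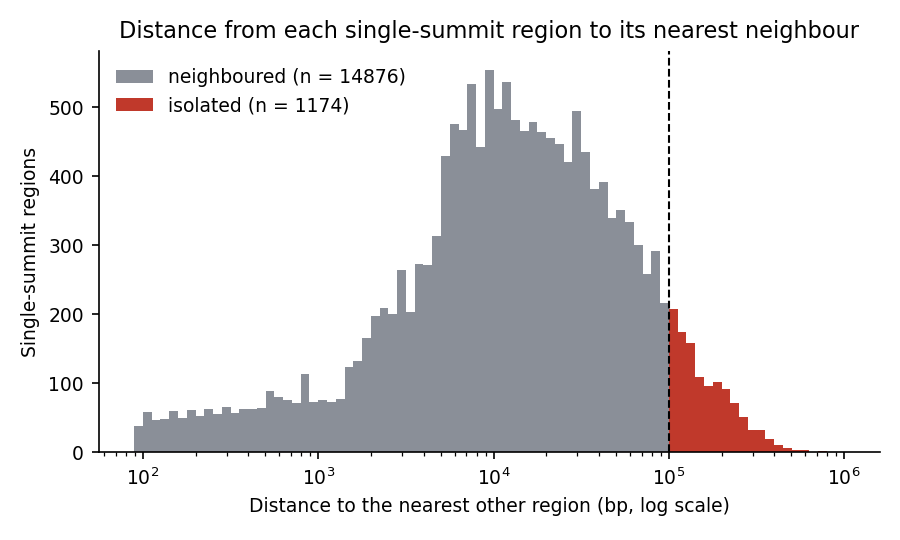
Histogram of the distance from each single-summit region to its nearest other region (x axis, bp, log scale; y axis, number of regions), with neighboured regions in gray, isolated regions in red and the limit of 100 kb as a dashed line. The isolated regions form the right-hand end of a continuous distribution, from 100233 to 725180 bp.

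Isolated regions were enriched by a median of 7.54-fold over background at the summit, with quartiles of 5.89 and 9.96 and values between 3.31 and 55.2. At neighboured regions the median was 7.92-fold, the quartiles were 5.89 and 10.8, and values ran from 1.91 to 79.4. The lower quartiles were thus at the same fold enrichment, and the upper quartile was lower among isolated regions. A fold enrichment of 10 or more was found at 292 isolated regions (24.9%, 22.5 to 27.4%) and at 30.4% of neighboured regions (29.7 to 31.2%). At 20-fold or more, the shares were 1.45% (17 regions, 0.906 to 2.31%) and 1.27% (1.1 to 1.46%), with overlapping intervals. Below 5-fold, they were 13.0% (153 regions, 11.2 to 15.1%) and 13.7% (13.2 to 14.3%), again with overlapping intervals.

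Scores (−log10 q multiplied by 10, decimals dropped) had a median of 85.5 at isolated regions (quartiles 55 and 137) and of 102 at neighboured regions (quartiles 59 and 172). The median −log10 q values were 8.60 and 10.2. Of the isolated regions, 459 (39.1%, 36.3 to 41.9%) scored above the median of the whole list, 105, compared with 48.1% of neighboured regions (47.3 to 48.9%). Scores of 500 or more occurred at 9 isolated regions (0.767%, 0.404 to 1.45%) and at 1.53% of neighboured regions (1.34 to 1.74%).

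Isolated regions had a median width of 163.5 bp (quartiles 128 and 206, range 92 to 491), and neighboured regions had a median width of 180 bp (quartiles 138 and 230, range 92 to 615). A width of at most 100 bp was found at 67 isolated regions (5.71%, 4.52 to 7.18%) and at 4.36% of neighboured regions (4.04 to 4.70%). Widths of 300 bp or more were found at 53 isolated regions (4.51%, 3.47 to 5.86%) and at 7.30% of neighboured regions (6.89 to 7.73%). The place of the summit within the region hardly varied between the groups. Measured from the left edge, it lay at a median of 0.482 of the width at isolated and 0.479 at neighboured regions.

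Beyond the nearest class, single-summit regions had lower scores the farther they lay from another region, on both sides of the limit of 100 kb. The median score was 104 within 1 kb, and it was highest, at 110, with a neighbour more than 1 kb and up to 5 kb away. It was 105, 102, 96 and 94 in the next distance classes, up to 10, 20, 50 and 100 kb. Isolated regions continued this order, with a median score of 87 in the 849 regions up to 200 kb from their neighbour and 79 in the 325 regions beyond. The median width was 166.5 bp within 1 kb. It was highest, at 189 bp, with a neighbour more than 5 kb and up to 10 kb away. Between 50 and 100 kb it was 169 bp, and in the 2 isolated classes 165 and 161 bp. Fold enrichment behaved differently at short distance. Its median was lowest, at 6.64, in the 1352 regions within 1 kb of another region. It was 8.33 between 10 and 20 kb, 7.97 between 50 and 100 kb, and 7.66 and 7.26 in the 2 isolated classes. The quartiles of all classes overlapped widely.

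**Figure D2:**
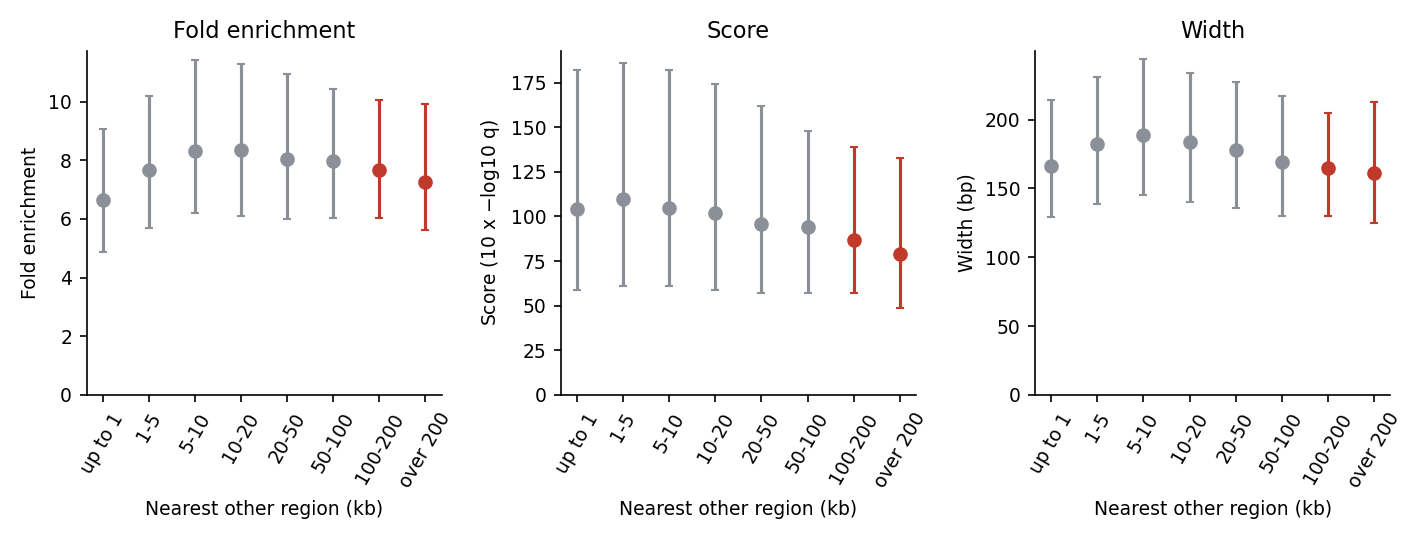
Median (points) with quartiles (bars) of fold enrichment, score and width (y axes) for single-summit regions in 8 classes of distance to the nearest other region (x axes, kb), with neighboured classes in gray and isolated classes in red. The isolated classes have the lowest median scores, 87 and 79, whereas the lowest median fold enrichment, 6.64, lies in the class within 1 kb.

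Among the isolated regions themselves, distance made little difference until the farthest quartile. The 294 regions nearest to the limit, with a neighbour at 100233 to 119106 bp, had a median fold enrichment of 7.66 and a median score of 87. The 2 quartiles of distance in the middle had medians of 7.63 and 7.66 for fold enrichment and 87 each for score. The 294 farthest regions, with a neighbour at 207798 to 725180 bp, had a median fold enrichment of 7.22 and a median score of 78.5.

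Regions were then compared within 4 groups cut at the quartiles of score over all single-summit regions. In the lowest group, with scores of 13 to 59, 7.97% of regions were isolated (7.18 to 8.84%). This share was 9.04% (8.18 to 9.98%) for scores of 60 to 100, 7.02% (6.27 to 7.86%) for 101 to 169, and 5.24% (4.59 to 5.97%) for 170 and above. In each group isolated regions were narrower by their medians. These were 137 and 144 bp in the lowest group, 150 and 167 bp in the second, 175.5 and 184 bp in the third and 198 and 221 bp in the highest, isolated regions first. Their median fold enrichment was higher in each group, although it was lower over all scores. It was 5.14 against 5.03, 7.05 against 7.01, 9.40 against 9.26 and 13.8 against 13.2, with overlapping quartiles throughout. Median scores within the groups were 42 and 42, 76 and 79, 124 and 129, and 228 and 244, isolated regions first. Above the lowest group, scores were thus not fully matched. Whether this gave the difference in width was not tested.

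Fold enrichment and significance came from the same anti-Tfap2a against IgG comparison, so a relation between them is not a separate result. They were closely related at isolated regions. At each fold enrichment, the lowest −log10 q among all single-summit regions with that fold enrichment or more was taken as the lower edge. The −log10 q of isolated regions had a median of 1.01 times this edge, and the highest ratio was 1.41. For neighboured regions the median was 1.04, and the highest ratio was 23.4. A value within 1.1 times the edge was found at 1103 isolated regions (94.0%, 92.4 to 95.2%) and at 69.1% of neighboured regions (68.3 to 69.8%). In the 3 lower score groups these shares were 99.7 and 88.9%, 99.4 and 82.6%, and 96.4 and 70.3%, from the lowest group up. In the group with scores of 170 and above they were 72.4% (66.0 to 78.0%) and 35.3% (33.8 to 36.8%). By distance, the share was 29.0% with another region within 1 kb and 32.2% above 1 kb and up to 5 kb, then 75.2% above 5 kb and up to 10 kb. It was 81.2%, 86.5% and 90.2% in the next neighboured classes, up to 20, 50 and 100 kb, and 93.9% and 94.2% in the 2 isolated classes. The neighboured regions farthest from another region thus came close to the isolated ones in this measure. The edge was defined after seeing the values, and isolated regions were among those it was taken over.

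**Figure D3:**
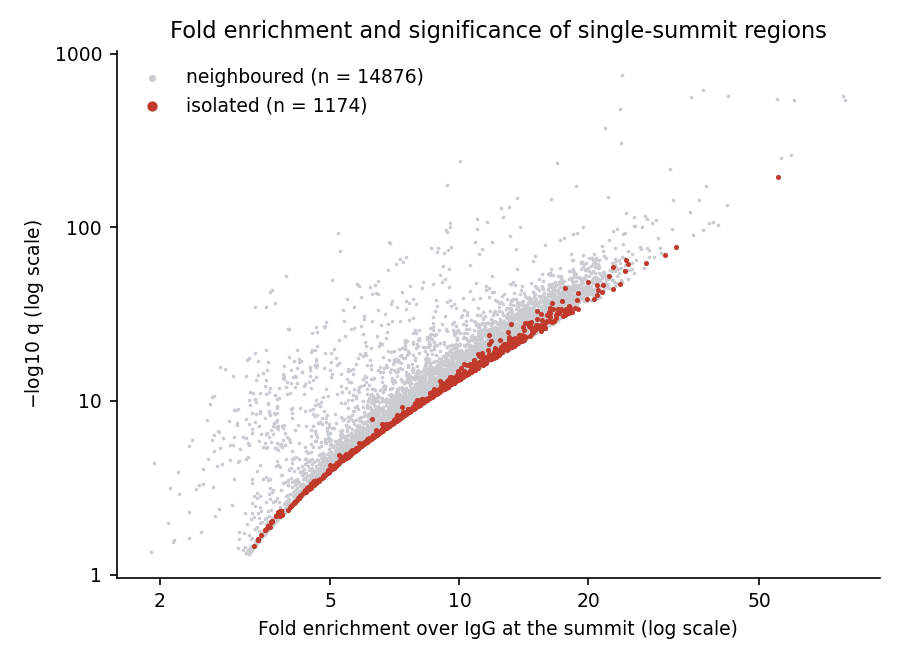
Fold enrichment (x axis, log scale) and −log10 q (y axis, log scale) of each single-summit region, with neighboured regions as gray and isolated regions as red points. Isolated regions follow the lower edge of the cloud, where 94.0% of them lie within 1.1 times the lowest −log10 q, while 69.1% of neighboured regions do.

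Many isolated regions shared exactly the same fold enrichment. The 1174 isolated regions held 726 different values and the 14876 neighboured regions 5948, but these counts depend on the size of the group. Of the isolated regions, 92.1% (90.4 to 93.5%) shared their value with at least 1 other single-summit region, compared with 76.9% of neighboured regions (76.2 to 77.6%). The 5 values held by at least 60 single-summit regions were 3.83, 4.59, 5.36, 6.12 and 6.89, which are the multiples 5, 6, 7, 8 and 9 of a step of 0.766. Isolated regions at these multiples numbered 18, 24, 29, 25 and 23. Each multiple from 5 to 11 had 1 value of −log10 q, from 2.32 at the multiple of 5 to 10.3 at the multiple of 11. At the multiple of 12 there were 2 values of −log10 q. Width varied within a multiple, and ranged from 93 to 253 bp among the 29 isolated regions at the multiple of 7.

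In all, 143 isolated regions (12.2%, 10.4 to 14.2%) lay within 0.00005 of a whole multiple, compared with 424 neighboured regions (2.85%, 2.59 to 3.13%). No single-summit region lay as close to a point midway between 2 multiples. The share was higher among isolated regions in the 3 lower score groups, at 21.6 against 6.27%, 16.1 against 3.70% and 5 against 1.43%. In the highest group, 1 of 210 isolated regions (0.476%, 0.0841 to 2.65%) and 1 of 3800 neighboured regions (0.0263%, 0.00465 to 0.149%) lay on a multiple. With 1 region on each side, this group is too sparse for a comparison. With another region within 1 kb, 1 of 1352 single-summit regions lay on a multiple, and 1 of 2569 did so above 1 kb and up to 5 kb. Above 5 kb and up to 10 kb the share was 2.16% (1.69 to 2.76%). It rose to 2.45%, 4.74% and 7.29% (6.16 to 8.60%) over the next neighboured classes, the last of which ended at 100 kb. In the isolated classes the share reached 11.0% (9.03 to 13.2%) between 100 and 200 kb and 15.4% (11.9 to 19.7%) beyond 200 kb. The rise with distance thus began among neighboured regions. Isolated regions on a multiple were weaker and narrower than the other 1031, with median fold enrichments of 6.12 and 7.96, median scores of 60 and 94 and median widths of 128 and 170 bp. They lay on all 25 chromosomes. MACS2 divides by a constant when the genome-wide background is the highest of its levels. Whether this gave the even steps was not tested, since the list holds neither the background nor the read counts.

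**Figure D4:**
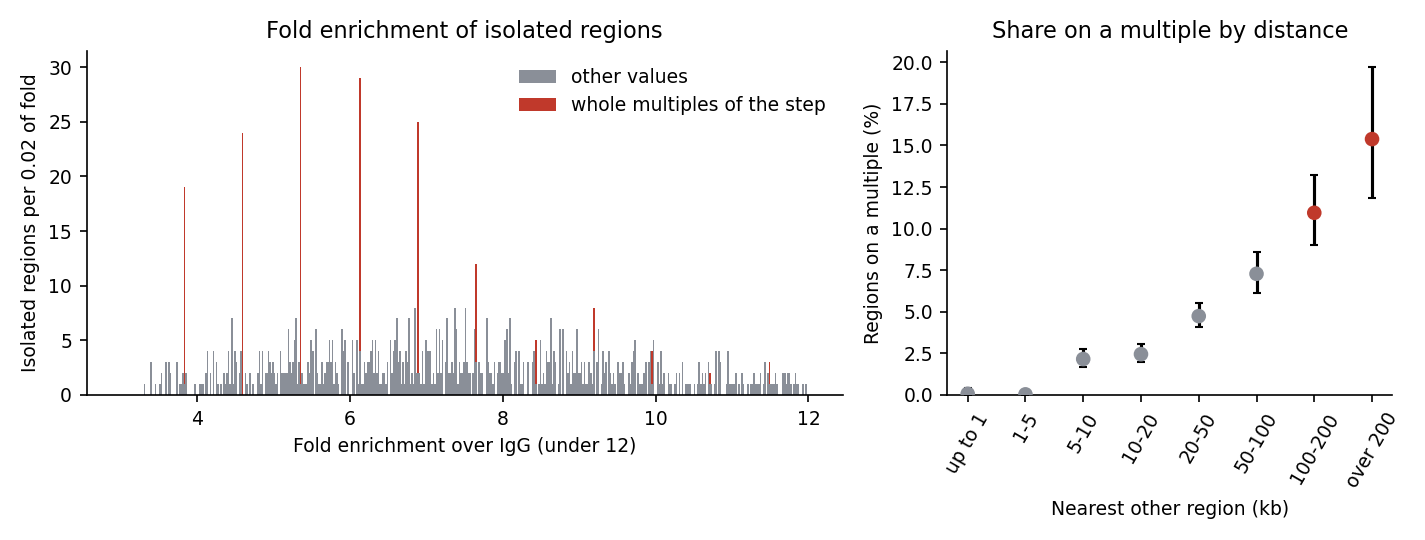
Left, histogram of fold enrichment (x axis, values under 12) of isolated regions in bins of 0.02 (y axis, number of regions), with whole multiples of 0.766 in red and other values in gray. Right, share of single-summit regions on a multiple (y axis, percent, with 95% Wilson intervals) by distance to the nearest other region (x axis, kb), with isolated classes in red. The multiples 5 to 9 stand above the other values, with 18 to 29 isolated regions each, and the share on a multiple reaches 15.4% beyond 200 kb.

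The isolation of these regions was then set against the record numbers, which the rule did not use. Numbers rose with position along each chromosome, each region held 1 number, and 16049 of the 34777 numbers were missing from the list. A missing number between a region and its neighbour shows that the numbering counted a further record there, although not how close it lay. Only 62 isolated regions (5.28%, 4.14 to 6.71%) had no missing number on either side, so that their isolation held in the numbering too. Another 413 (35.2%, 32.5 to 38.0%) had none on 1 side only, and 699 (59.5%, 56.7 to 62.3%) had missing numbers on both sides. The median was 3.5 missing numbers for the 2 flanks together, and the highest was 17. Of the neighboured regions, 32.6% (31.8 to 33.3%) had no missing number on either side, and the median was 1. The flanks of isolated regions are longer by the rule, so more missing numbers there are not a separate result.

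Per length, missing numbers were sparser in the flanks of isolated regions than over all gaps between regions. The 1956 gaps beside isolated regions covered 493 Mb, which was 38.4% of the length of all gaps, and held 3904 missing numbers, which was 25.3% of those between regions. This was 7.93 missing numbers per Mb, compared with 12 per Mb over all gaps. Gaps of more than 100 kb that did not touch an isolated region held 10.1 per Mb. By length, gaps of at most 10 kb held 24.1 per Mb, those between 100 and 200 kb held 11.8 per Mb, and longer ones held 7.57 per Mb. No number was missing in 21.8% of gaps beside isolated regions (20.1 to 23.7%). The share was 15.5% (13.9 to 17.2%) in the other gaps of more than 100 kb and 55.6% over all gaps. The flanks of isolated regions are long by the rule, and missing numbers per Mb were fewer in longer gaps over all regions. Whether length gave the lower number per Mb beside isolated regions was not tested.

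**Figure D5:**
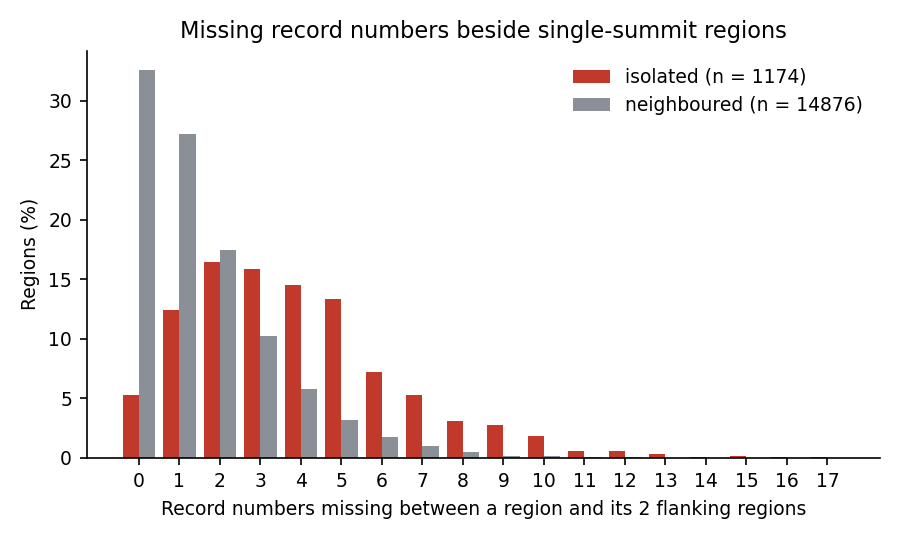
Percentage of isolated (red) and neighboured (gray) single-summit regions (y axis) by the number of record numbers missing between the region and its 2 flanking regions (x axis). No number was missing for 5.28% of isolated and 32.6% of neighboured regions.

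The 62 regions with no missing number on either side resembled the other isolated regions in strength. Their median fold enrichment was 7.78 (quartiles 6.07 and 9.68) and their median score 89, compared with 7.54, 7.50 and 7.56 for fold enrichment and 85, 84 and 86 for score in regions with 1 to 3, 4 to 6, and 7 or more missing numbers. Their nearest neighbour lay at a median of 124 kb and at most at 319 kb. They were spread over 23 chromosomes. On a whole multiple of the step lay 12 of the 62 (19.4%, 11.4 to 30.9%). The share of all isolated regions, which include these 62, was 12.2% and lay within this wide interval. With so few regions, neither a difference nor its absence can be read from it. Of the 4845 neighboured regions with no missing number on either side, 113 lay on a multiple (2.33%, 1.94 to 2.80%).

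The isolated region with the highest fold enrichment and score lay on chromosome 11 at 8126649-8126822, with a fold enrichment of 55.2, a score of 1941 and a −log10 q of 194. Its neighbours were 433 kb to the left, with 5 missing numbers between, and 109 kb to the right, with none. It stood far above the next region, on chromosome 25 at 11569208-11569407, with a fold enrichment of 32.0, a score of 773 and 5 missing numbers on its flanks. The third, on chromosome 2 at 28955437-28955604, had a fold enrichment of 30.1 and a score of 689. It was the strongest of the 62 regions with no missing number on either side, with its neighbours 214 and 206 kb away. The region on chromosome 24 at 37219490-37219642 had a fold enrichment of 27.2 and a score of 623. The region on chromosome 10 at 33943893-33944148 had a fold enrichment of 24.7 and a score of 614, and each of these 2 had 1 missing number on its flanks. By score, the fourth place was held by the region on chromosome 3 at 39912858-39913077, with a score of 644, a fold enrichment of 24.4 and no missing number over flanks of 365 and 109 kb. These 6 regions were 153 to 256 bp wide, and none lay on a multiple of the step.

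The regions farthest from any other were weak or of middling strength. The farthest, on chromosome 14 at 11139231-11139338, lay 725 kb from its left and 982 kb from its right neighbour. Its fold enrichment of 7.51 was above 49.5% of isolated regions, and 12 numbers were missing on its flanks. The next 3 had fold enrichments of 6.65 on chromosome 2 at 51352842-51352970, 6.58 on chromosome 17 at 13649794-13649921 and 5.73 on chromosome 18 at 28541754-28541900. The fifth, on chromosome 7 at 3331278-3331387, had a fold enrichment of 3.73, above 1.36% of isolated regions, and a score of 21. All 5 were narrower than the median isolated region, at 108 to 147 bp, and had 5 to 15 missing numbers on their flanks. In all, 99 isolated regions had no other region within 300 kb, and 10 had none within 500 kb.

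The lowest scores among isolated regions were 14, on chromosome 2 at 32878934-32879028, and 15 each on chromosome 3 at 34950068-34950159 and chromosome 5 at 42022450-42022576. Their fold enrichments were 3.31, 3.38 and 3.38. These regions were 95, 92 and 127 bp wide, and the summits on chromosomes 2 and 5 lay at base 7 and base 15 of the region. At the limit itself, 2 members on chromosome 9, at 1362720-1362821 and 1463055-1463216, were each other's nearest neighbour at 100233 bp, with fold enrichments of 8.05 and 5.08. The next member, on chromosome 2 at 27100906-27101058, was 100274 bp from its neighbour and had a fold enrichment of 8.33. Just outside the limit, 2 regions on chromosome 19, at 28147227-28147371 and 28247364-28247536, were 99992 bp apart, with fold enrichments of 6.12 and 8.38. The third, on chromosome 18 at 35761223-35761347, was 99798 bp from its neighbour and had a fold enrichment of 7.49. Values on the 2 sides of the limit overlapped.

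Isolated regions occurred on all 25 chromosomes. Their share of single-summit regions was highest on chromosome 8 (71 regions, 11.3%, 9.09 to 14.1%) and chromosome 22 (49 regions, 10.7%, 8.21 to 13.9%). It was lowest on the part of chromosome 4 analyzed here (12 regions, 2.63%, 1.51 to 4.53%), on chromosome 23 (33 regions, 4.48%, 3.21 to 6.23%) and on chromosome 13 (35 regions, 4.67%, 3.38 to 6.43%). These 3 had the most regions per Mb, at 18.9, 17.9 and 16.1, compared with 12.8 and 13.1 on chromosomes 8 and 22. Chromosomes 12 and 1 had fewer still, at 12.2 and 12.5, with lower isolated shares of 8.49 and 8.50%. Whether the number of regions per Mb gave the shares was not tested. The median fold enrichment of isolated regions by chromosome ranged from 6.12 on chromosome 23 to 9.02 on chromosome 13. Both of these chromosomes had few isolated regions, so a low share went with a low median on one and a high median on the other.

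Along the chromosomes, the isolated share of single-summit regions was highest toward the ends. With each chromosome divided into 5 equal stretches between its outermost regions, 9.12% (8.11 to 10.2%) of single-summit regions were isolated in the first stretch, 6.92% (6.11 to 7.84%) in the second, 4.61% (3.99 to 5.31%) in the middle one, 7.24% (6.40 to 8.18%) in the next and 9.93% (8.87 to 11.1%) in the last. The stretches held 2797, 3308, 3930, 3287 and 2728 single-summit regions in this order, so these regions were sparsest toward the ends. A rule on distance takes more regions where they are sparse, so the shares are given as a description only. The last stretch of chromosome 4 ended near the cut at 27 Mb. The median fold enrichment of isolated regions in these stretches was 8.05, 7.26, 7.65, 7.78 and 7.13, with no common course from the ends to the middle.

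A flanking region was isolated as well at 634 isolated regions (54.0%, 51.1 to 56.8%), and both were at 150 (12.8%, 11.0 to 14.8%). By the rule a region next to an isolated one already has a gap of more than 100 kb on 1 side, so these shares are given as a description only. The other 540 stood as single members between regions that were not members. There were 156 runs of 2 consecutive members and 55 of 3, and the longest run held 13. Compared with its 2 flanking regions, an isolated region had the lowest score in 35.2% of cases (32.5 to 38.0%) and the highest in 29.9% (27.3 to 32.6%). For neighboured regions these shares were 34.3% (33.6 to 35.1%) and 31.9% (31.1 to 32.6%), with overlapping intervals for both. Where both flanking regions held 1 record, 33.8% of 1000 isolated regions had the lowest score and 31.3% the highest, compared with 32.6% and 33.1% of 11925 neighboured regions.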

How the data were processed

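CUT&RUN was measured in 2 samples, and the authors deposited 1 peak list, which names no sample and may come from 1 of them or from both. According to the paper's methods, the authors used Trim Galore for trimming, Bowtie2 for mapping to danRer11 and MACS2 for calling peaks over IgG. The settings of MACS2 and any pooling are not given in the sources used here, and the labels name both danRer10 and danRer11. The deposited score is −log10 q multiplied by 10 with its decimals dropped in all 21059 records. Fold enrichment is the deposited ratio of antibody signal to background at the summit, and the −log10 q is deposited as the authors' caller gave it.

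Records sharing at least 1 bp were merged, and the number of base pairs between consecutive regions was measured with Python 3.11.15, numpy 2.4.6, pandas 2.3.3 and scipy 1.17.1. Plots were drawn with matplotlib 3.10.9. The rule was tested on simulated data, in which gaps were drawn away from the limit and chromosome 4 was kept whole. Depth is unknown. Shares carry Wilson 95% intervals for counting error, and no test was made. The members and the measures were chosen with earlier results of these data known, and the lower edge and the even steps after seeing the values. Named regions were the 5 with the highest fold enrichment, the 5 with the highest score, the 5 farthest from another, the 3 with the lowest score, and the 3 on each side of the limit. Alternatives changed the limit, the merging, the threshold on score, the outermost regions and chromosome 4. Planned descriptions of sequence and gene annotation were not run, as no genome of the list's build was used.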

Additional observations from a re-analysis of the deposited data

How the results depend on the processing

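The number of isolated regions, 1174, was 2931 with a limit of 50 kb and 325 with a limit of 200 kb, and those with no missing record number, 62, became 229 and 10. At these limits the median fold enrichment of isolated regions, 7.54, was 7.78 and 7.26, and their median score, 85.5, was 90 and 79. With records above the median score alone, 1353 regions were isolated, with medians of 10.8 for fold enrichment, 160 for score and 194 bp for width. The median fold enrichment of neighboured regions was then 10.7, so that the order of the 2 groups turned, and 5 isolated regions had no missing number, because records below the median then counted as missing. In the 62 regions without missing numbers, an alternative added after seeing the data, the median fold enrichment was 7.78 and the median width 152.5 bp. These 15 of 40 recomputed values left the 95% interval of the median or changed a count by over 1.5 times, and the other 25 did not. The intervals were those of the main setting and do not measure the error of a group of 62. The median fold enrichment of the 62, 7.783, lay just above the upper end of 7.782. In each of the 9 settings isolated regions had the lower median score and width, and in 8 of the 9 the lower median fold enrichment. These settings are not independent, and several held nearly the same regions as the main one. In the setting without missing numbers only the isolated side was limited. All 14876 neighboured regions were kept there, although 4845 of them had no missing number either. No paired analysis was possible because the list carries no replicate numbers, and leaving out a sample was not run for the same reason. Neither were the settings for motifs, windows and promoters. Without read counts, the depth behind a region and its error between samples remain unknown, and the list does not show that a stretch between its regions was free of Tfap2a.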
